A study of Mus musculus with 6 samples.

Results

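The cytosolic ribosomal protein genes encode the proteins of the large and the small subunit of the ribosome, the machine that translates messenger RNA in the cytoplasm. They were taken as all genes of the deposited table with a symbol of the form Rpl or Rps plus a number (with the copy suffixes a, l and x), together with Rplp0, Rplp1, Rplp2 and Rpsa, and without pseudogene symbols. This gave 85 of the 15469 genes of the table, 53 of the large subunit and 32 of the small subunit. Fau, whose product is cut to release a ribosomal protein, lies outside this naming rule and is given apart. Names alone decided which genes are members, but the family was chosen with earlier results of these data known.

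The RNA came from macrophages washed out of the peritoneal cavity of CAIA mice, a model the labels name by its abbreviation. Cells stained on their surface for RELM-α, a resistin-like protein that alternatively activated macrophages secrete, were sorted and put in culture. The labels describe the cells of the 3 KO libraries as PU.1-deleted and those of the 3 WT libraries as controls from the same sort, PU.1 being the ETS-family transcription factor encoded by Spi1. How the deletion was made, the strain, the age, the sex, the time in culture and whether each library stands for its own animal are not in the labels, so the p-values cover a spread that may be technical.

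Each ribosome needs its proteins in equal number, and mammalian cells make their messenger RNAs at high and balanced levels. Most of these transcripts begin at a C followed by a run of pyrimidines, the 5′ terminal oligopyrimidine or TOP motif, through which the kinase complex mTORC1 and the RNA-binding protein LARP1 control their translation and stability. Their promoters usually lack a TATA box, and many hold ETS-type sites with the core GGAA, which GABP and other ETS proteins can bind. When ribosome assembly fails, free Rpl5 and Rpl11 bind the p53 inhibitor MDM2, a textbook link between this gene family and p53.

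The sequences around the transcription start carry part of that design. RefSeq start windows of the build GRCm38.p6 were at hand for 65 of the 85 members, with 77 windows of 300 bases, from 250 bases before to 50 after a start. A C followed by at least 4 pyrimidines, on the strand of the gene and beginning within 10 bases of an annotated start, was present in 40 of the 65 members (61.5%). The share was 34.4% over all 27025 genes with a window and 37.2% over the 9200 other genes tested. A run that began exactly at an annotated start was present in 14 members (21.5%), against 3.01% of all genes and 2.78% of the other genes tested. The lines below give, for 9 members the results turn on, the stretch from 25 bases before to 15 bases after the start on the strand of the gene, 5′ to 3′, with the pyrimidine run in capitals. Rps6 (chr4:86857353-86857392, minus strand), Rps27 (chr3:90213634-90213673, minus), Rpl35 (chr2:39005117-39005156, minus), Rplp2 (chr7:141447626-141447665, plus) and Rpl38 (chr11:114668555-114668594, plus) have a run that begins at positions -1, -2, -7, -4 and 1, counting the annotated start as 1 and the base before it as -1. Rpl12 (chr2:32961687-32961726, plus) and Rps7 (chr12:28635939-28635978, minus) have one that begins at positions 3 and 8, and Rplp0 (chr5:115559442-115559481, plus) and Rpl36al (chr12:69184053-69184092, minus) have none by this rule.
Rps6: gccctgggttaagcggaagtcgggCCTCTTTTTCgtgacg
Rps27: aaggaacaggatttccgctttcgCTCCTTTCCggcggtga
Rpl35: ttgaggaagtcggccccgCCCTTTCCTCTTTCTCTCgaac
Rplp2: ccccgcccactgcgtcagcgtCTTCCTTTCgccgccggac
Rpl38: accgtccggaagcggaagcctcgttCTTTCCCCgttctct
Rpl12: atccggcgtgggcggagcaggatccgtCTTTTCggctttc
Rps7: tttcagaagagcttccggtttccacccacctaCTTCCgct
Rplp0: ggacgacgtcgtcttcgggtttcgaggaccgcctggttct
Rpl36al: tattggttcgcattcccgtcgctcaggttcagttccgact
An annotated start can lie some bases from the start used in these cells, so a missing run says only that these letters are not in this window. Rpl3, Rpl32 and Rpl21 were not among the windows.

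The ETS core in its longer form CGGAAG was sought on either strand and anywhere in the 300 bases. It was present in 43 of the 65 members (66.2%), against 18.8% of all genes and 36.7% of the other genes tested. CGGAAG was also present in 22 of 38 ribosome biogenesis factors (57.9%) and 6 of 11 RNA polymerase I genes (54.5%). Among elongation factors and other listed TOP genes it was present in 7 of 18 (38.9%). The stretches printed above hold it on the strand of the gene in Rps6 and Rpl38 and on the other strand in Rps7. GAGGAAG, a form that PU.1 prefers, was present in 12 members (18.5%), against 15.4% of all genes and 16.3% of the other genes tested. AAGATGGC, the core of the YY1 motif, was present in 6 members (9.23%) against 3.19% and 5.58%, and TATAAA in 8 members (12.3%) against 15.7% and 8.35%. These are matches of letters, not measured sites, and CGGAAG and GAGGAAG share the bases GGAAG but cannot be the same match.

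Before the comparison, some facts of the libraries need stating. The depth was 17280851 to 18632616 counts per library after rounding. KO replicate 1 stood apart from KO replicates 2 and 3 over the whole transcriptome, so edgeR's counts of called genes are given with and without it. The KO replicates 1 to 3 had 276.9, 285.5 and 319.7 CPM of Spi1 (counts scaled to a common library size, with TMM factors), and the WT replicates had 323.4, 340.2 and 283.7 CPM. The groups overlapped (log2 -0.10, SE 0.106, edgeR adjusted p = 0.561), so the deletion does not show in the amount of Spi1 transcript. A count per gene cannot tell whether the transcript is intact, so these values do not decide on the label. Every direction below is one between libraries labelled KO and libraries labelled WT. The 4 Y-linked genes tested had 1 to 8 counts in a KO library and 2158 to 2854 in a WT library, so the sex of the cells and the label cannot be told apart. Of the 12 defining macrophage markers, 11 were in the table and none was at 0 in all libraries. Their summed level was 24634.1, 49833.4 and 48181.9 CPM in KO replicates 1, 2 and 3 and 40991.3 to 46345.2 CPM in the WT libraries. Most of that sum was lysozyme, Lyz2, at 13171.3, 36708.9 and 35108.1 CPM in the KO libraries, while the receptor gene Csf1r, at 2899.9, 2608.8 and 2573 CPM, was highest in KO replicate 1.

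As a whole, the ribosomal protein genes took a larger share of each library labelled KO than of any library labelled WT. The 85 members held 2.87%, 3.45% and 3.33% of the counts in KO replicates 1, 2 and 3, and 2.55%, 2.5% and 2.11% in WT replicates 1, 2 and 3. The groups did not overlap, KO replicate 1 lay nearest to the WT libraries and WT replicate 3 was the lowest of all. The means were 3.22% ± 0.306 and 2.39% ± 0.244 (SD, n = 3 each), a ratio of 1.35. No test was made of this sum, since the genes were chosen with results of these data known. Without KO replicate 1 the ratio was 1.42, and KO replicate 1 alone was at 1.2 times the WT mean.

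Per length, the family weighed more, because most of its transcripts are short. In TPM, a level corrected for transcript length, the members held 11%, 12.6% and 12% in KO replicates 1, 2 and 3, and 9.02%, 8.94% and 7.89% in WT replicates 1, 2 and 3. The ratio of the means was 1.38, from 11.9% ± 0.821 against 8.61% ± 0.632 (SD, n = 3 each). A share also moves when a few very abundant genes take more or fewer reads. With the 50 most abundant other genes left out of the total, the shares of the counts were 3.81%, 4.83% and 4.67% against 3.78%, 3.68% and 3%. KO replicate 1 then lay next to WT replicate 1, and the ratio was 1.27. In bulk RNA, fewer cells of a type and less RNA per cell cannot be told apart, and a larger share does not give the number of molecules per cell.

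**Figure D1:**
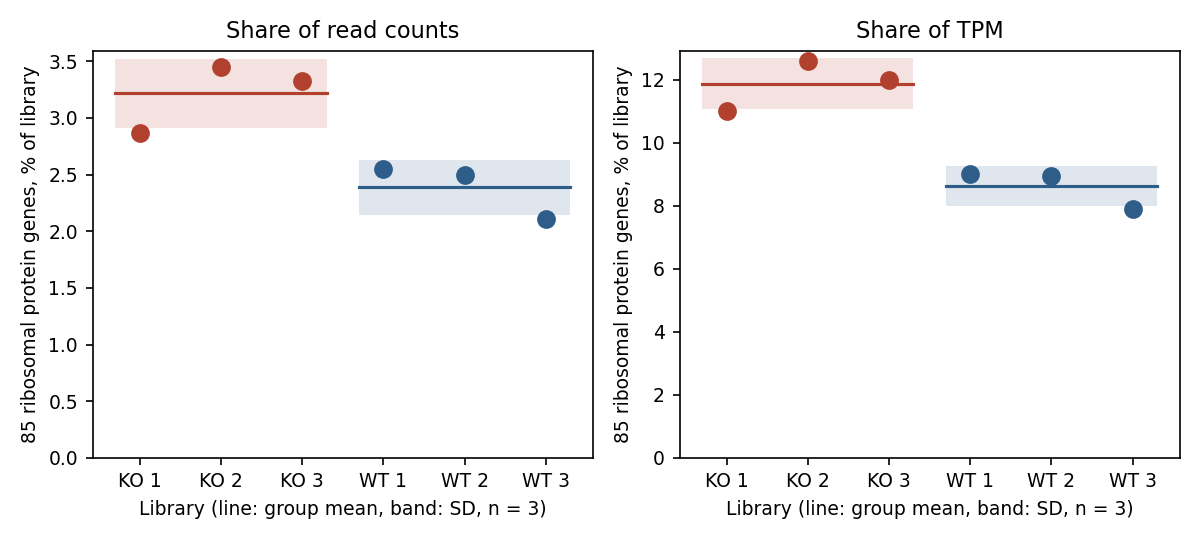
Share of the 85 ribosomal protein genes in the counts (left, %) and in the TPM (right, %) of each library; points are libraries, lines are group means and bands are 1 SD (n = 3). The KO libraries lie at 2.87% to 3.45% of the counts and 11% to 12.6% of the TPM, above the WT libraries at 2.11% to 2.55% and 7.89% to 9.02%.

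The summed markers of platelets and of B cells were lower in every KO library than in any WT library. The 8 platelet and megakaryocyte markers, all in the table and none at 0 throughout, summed to 18.2 to 62.1 CPM in the KO libraries and 72.2 to 124.5 CPM in the WT libraries, and edgeR called 4 of them lower over all libraries and 7 without KO replicate 1. The fibroblast markers (6 of 8 in the table) were at 4.13 CPM in KO replicate 1, 24.5 and 37.5 CPM in KO replicates 2 and 3 and 5.65 to 8.84 CPM in the WT libraries; 0 of 4 tested were called over all libraries and 6 of 6 were called higher without KO replicate 1. The B cell markers (8 of 9 in the table) summed to 9.85 to 35.2 CPM in the KO and 43.3 to 59.2 CPM in the WT libraries. Neutrophil markers (9 of 10) stood at 79.3 to 137.2 against 113.5 to 114.5 CPM, and T and NK cell markers (9 of 11) at 1.95 to 2.48 against 1.62 to 2.31 CPM. Mast cell and eosinophil markers (6 of 10), dendritic cell markers (8 of 8), erythroid markers (5 of 8) and mesothelial markers (3 of 8) reached at most 8.95, 11.7, 1.96 and 0.11 CPM in any library. The part of these cells in the ribosomal protein difference was not tested.

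Gene by gene, 82 of the 85 members had enough counts to be tested among 11424 genes. The 3 that did not are Rpl39l, Rpl3l and Rpl10l. Over all 6 libraries edgeR's quasi-likelihood test called 0 members higher and 0 lower in the KO libraries at a Benjamini-Hochberg adjusted p under 0.05, where 3.32% of all genes tested were called (2.26% higher and 1.06% lower). At an unadjusted p under 0.05, 31 members were higher, against 15% of all genes, and 0 were lower, against 887 of the 11424 genes. The log2 difference, KO minus WT, was above 0 for 80 of the 82 members, against 49.3% of all genes. Its median was 0.30, beside -0.01 over all genes tested, and its range was -0.32 to 0.57. The direction was thus shared by nearly all members while no single member passed the threshold. limma-voom called 0 members as well (31 at an unadjusted p under 0.05), where it called 2% of all genes higher and 1.1% lower (3.11% together).

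Without KO replicate 1 the count of calls was of another order, for these genes and for all genes. Then 61 of 83 members were called higher (edgeR, adjusted p under 0.05), against 23.6% of all 11677 genes tested, and 1 member, Rpl36al, was called lower, against 26% (49.6% of all genes in either direction). The called members rose by 0.27 to 0.83 on the log2 scale, apart from Rpl39l at 1.80, and the 21 members not called had differences of -0.11 to 0.40. The median over the members was 0.38, beside 0.02 for all genes. With GC content and transcript length corrected as well, an analysis added after the data were seen, 53 members were called higher (22.5% of all genes) and 2 lower (28.1%), with a median of 0.28.

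**Figure D2:**
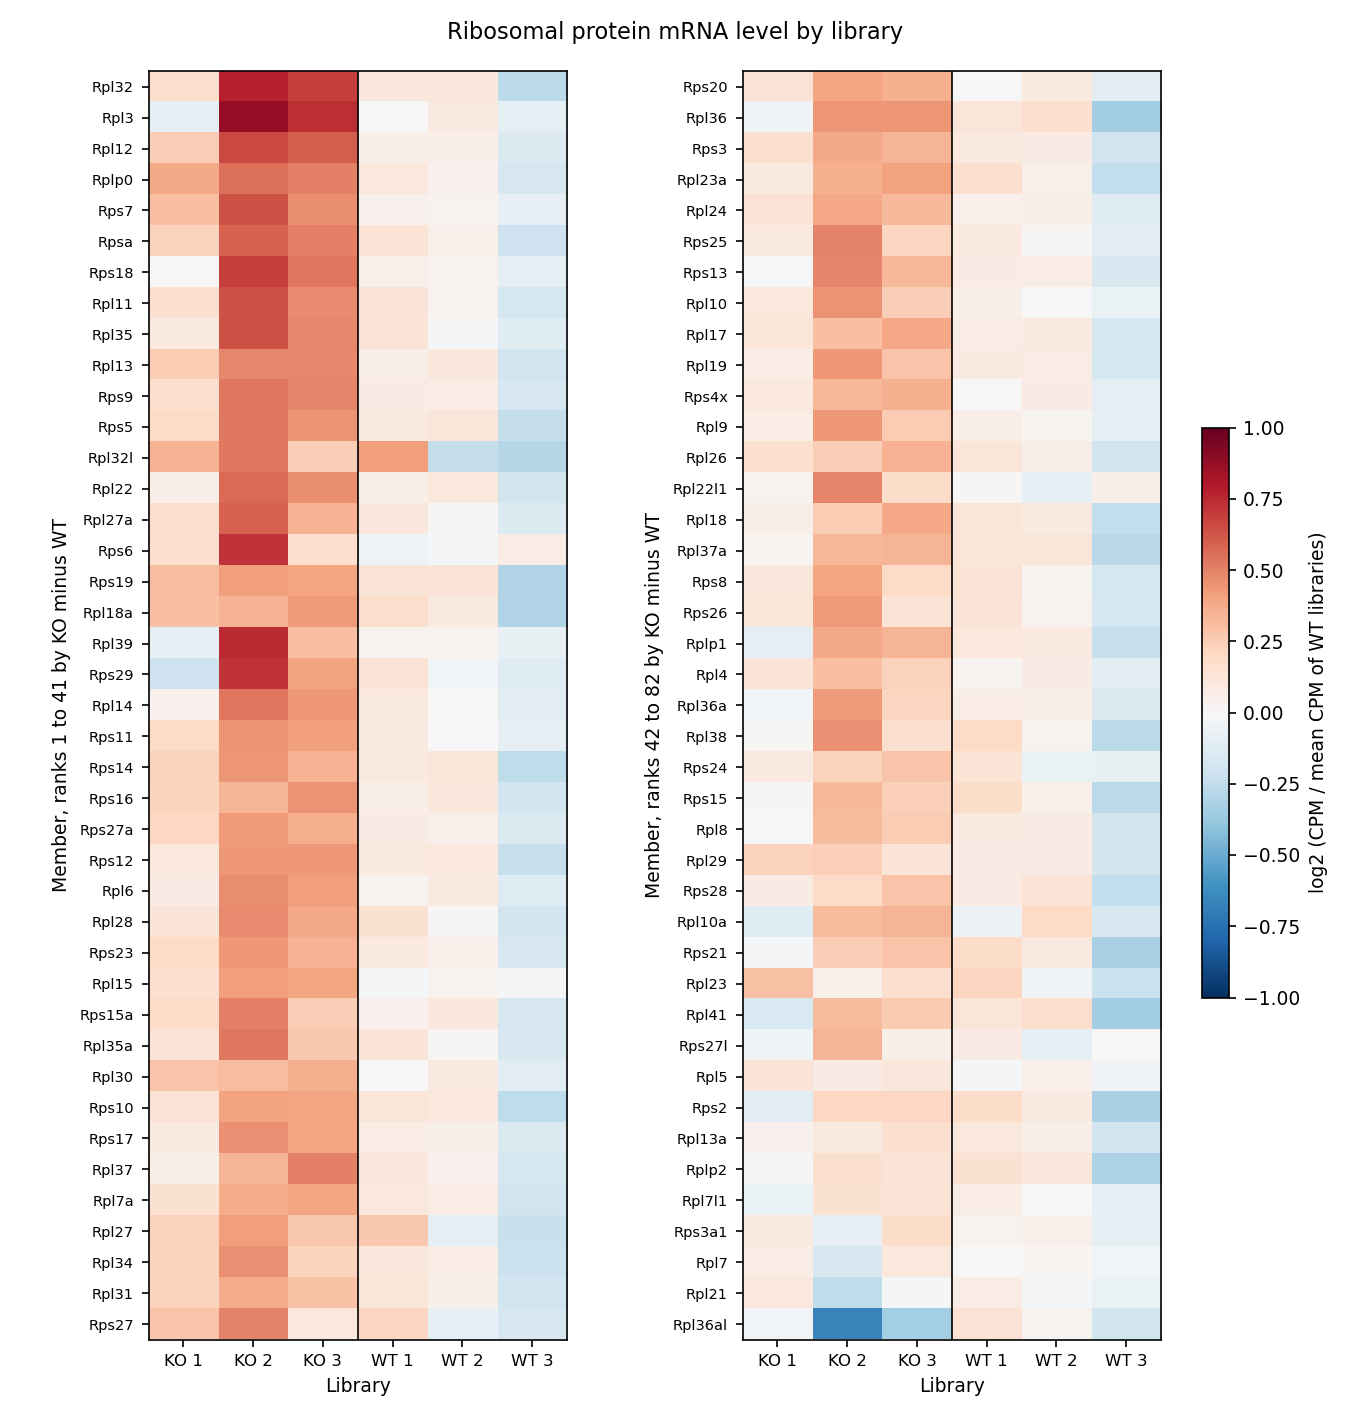
Level of the 82 tested ribosomal protein genes (rows, ordered by log2 difference, in 2 panels) in the 6 libraries (columns), as log2 of CPM over the mean of the WT libraries; the black line separates KO from WT. Most rows are red in KO replicates 2 and 3, paler in KO replicate 1 and blue in WT replicate 3, and Rpl36al at the bottom is blue in KO replicates 2 and 3.

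The order of the libraries was much the same from gene to gene. KO replicate 2 was the highest of the 6 libraries for 57 members and KO replicate 3 for 21. WT replicate 3 was the lowest for 73 members. The median member lay at 0.42, 0.34 and 0.11 above the WT mean on the log2 scale in KO replicates 2, 3 and 1, and at 0.10, 0.06 and -0.17 in WT replicates 1, 2 and 3. Thus KO replicate 1 and WT replicate 1 stood almost level by this measure.

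All 3 KO libraries were above all 3 WT libraries for 39 of the 82 members, against 18.4% of all genes, and all 3 were below for 0, against 12.6%. For KO replicates 2 and 3 alone, 70 members lay above every WT library, against 33.9% of all genes, and 1, Rpl36al, lay below, against 35.6%. KO replicate 1 was above every WT library for 44 members, within their range for 35 and below it for 3. It was the lowest KO library for 72 members and the highest for 4, which were Rpl23, Rpl5, Rpl36al and Rpl21.

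The largest differences were those of Rpl32, Rpl3, Rpl12, Rplp0 and Rps7. Rplp0 (gene ID 11837, chromosome 5, 115559467 to 115563729, plus strand, GRCm38) encodes the scaffold of the P stalk, the arm that recruits and activates elongation factors. Its level was 1048.6, 1179.3 and 1138.5 CPM in the KO libraries, given here and below in the order of the replicate numbers, and 866.7, 830.7 and 717.3 CPM in the WT libraries. Every KO library was above every WT library. The fold was 1.39 and the log2 difference 0.48 (SE 0.108, 95% interval 0.22 to 0.74, edgeR adjusted p = 0.0714), the smallest adjusted p of the family.

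Rps7 (gene ID 20115, chromosome 12, 28630847 to 28635953, minus strand), a small-subunit protein needed for processing of the ribosomal RNA and mutated in some Diamond-Blackfan anaemia families, came next. It was at 358.5, 451.9 and 401.9 CPM in the KO and 300.2, 298.5 and 275 CPM in the WT libraries. The groups did not overlap, and the fold was 1.39 (log2 0.47, SE 0.11, edgeR adjusted p = 0.0764). Rpl12 (gene ID 269261, chromosome 2, 32961712 to 32964045, plus strand), which sits at the base of the stalk, was at 366.7, 489.1 and 470.3 CPM against 324.1, 324.7 and 280.1 CPM. Its groups did not overlap either, with a log2 difference of 0.51 (SE 0.138, edgeR adjusted p = 0.102).

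Some other fits, though not limma-voom, called members, Rplp0 and Rps7 among them. DESeq2 called 4 members higher and 0 lower (7.12% and 3.69% of all genes), namely Rpl12, Rpl30, Rps7 and Rplp0, with adjusted p of 0.0469, 0.0469, 0.0183 and 0.00964. The authors' deposited table held 2 members with a q-value under 0.05, Rplp0 (0.012) and Rps7 (0.0226), beside 5.28% of its genes higher in KO. With GC content and length corrected over all 6 libraries, edgeR called 3 members higher, Rpl13, Rps7 and Rplp0 (2.72% of all genes), and 0 lower (2.28%). limma on log2(TPM + 1) called 44 of 83 members higher and 0 lower (7.47% and 0.977% of all genes, 8.44% together). On that scale the median of all genes was itself at 0.12, beside 0.46 for the members.

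**Figure D3:**
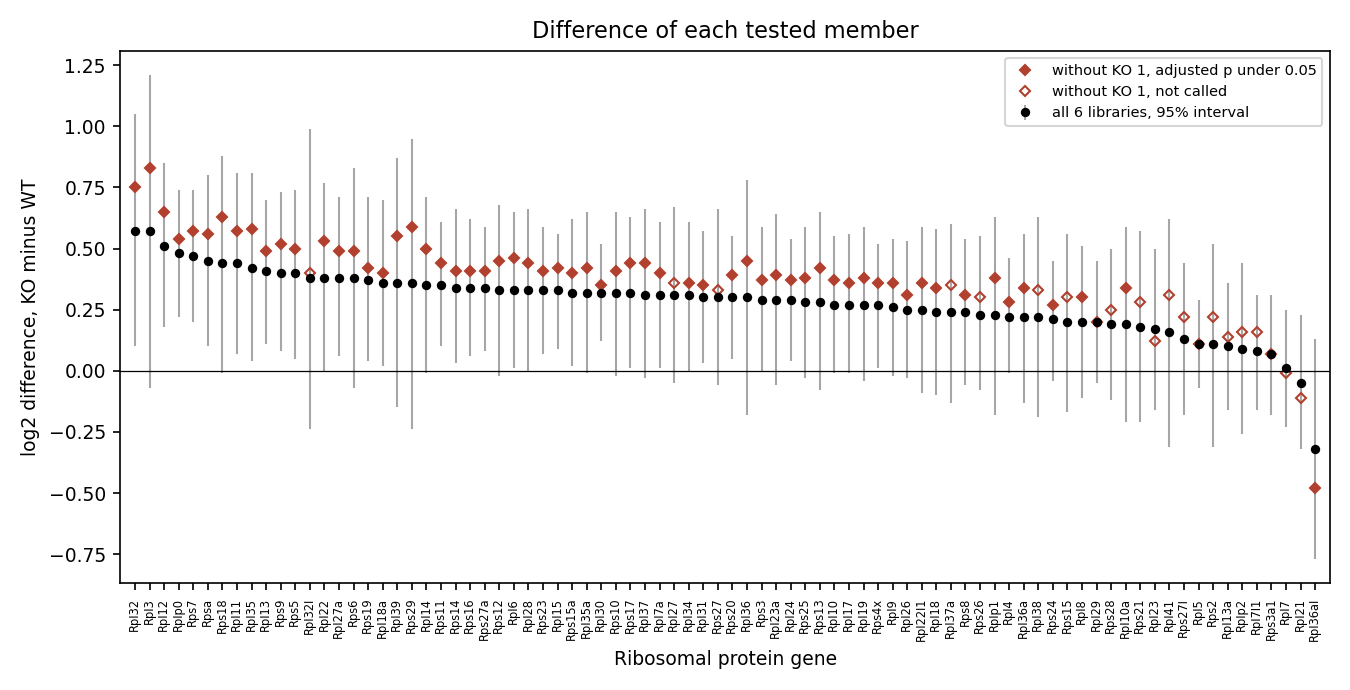
Log2 difference, KO minus WT, of the 82 tested members in order of size; black points with 95% intervals are from all 6 libraries, red diamonds from the fit without KO replicate 1, filled where the adjusted p is under 0.05. The black points run from 0.57 (Rpl32, Rpl3) to -0.32 (Rpl36al), and most diamonds lie above their points.

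Both subunits leaned the same way. Of the 50 large-subunit members tested 48 had a difference above 0, with a median of 0.29, and all 32 small-subunit members did, with a median of 0.32. In the fit without KO replicate 1, in which 23.6% of all genes were higher and 26% lower, edgeR called 37 of 51 large-subunit members higher and 1 lower, and 24 of 32 small-subunit members higher and 0 lower. The small-subunit genes made up 39.8% to 40.4% of the family's counts in every library. The difference between the subunits was not tested.

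The functional groups of the ribosome described next had medians above 0, with 0 of its members called over all 6 libraries by edgeR. In the P stalk, Rplp1 and Rplp2, the acidic proteins that dock on Rplp0, had log2 differences of 0.23 (SE 0.165, adjusted p = 0.427) and 0.09 (SE 0.143, adjusted p = 0.699), below the 0.48 of their scaffold. Rplp1 was at 343.7, 476.8 and 464 CPM in the KO and 393.9, 391.5 and 312.5 CPM in the WT libraries, so the groups overlapped. Rplp0 and Rplp1 rose when KO replicate 1 was left out, and Rplp2 did not pass the test (adjusted p = 0.368).

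The pair that carries the 5S ribosomal RNA, Rpl5 and Rpl11, had no overlap between the groups in either gene. Rpl5 (gene ID 100503670, chromosome 5, 107900508 to 107909005) was at 455.3, 438.8 and 449.1 CPM in the KO and 412.5, 429.2 and 404.3 CPM in the WT libraries. That is a narrow gap with a narrow spread, a log2 difference of 0.11 (SE 0.0739, edgeR adjusted p = 0.403). Rpl11 (gene ID 67025, chromosome 4, 136049354 to 136053393) was at 231.8, 321.9 and 286.9 CPM against 225.9, 211.6 and 182.7 CPM, a log2 difference of 0.44 (SE 0.15, adjusted p = 0.16). Relative to the family total, Rpl5 was at -0.18 and Rpl11 at 0.14 on the log2 scale. Neither was called there over all 6 libraries (edgeR adjusted p = 0.352 and 0.334).

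The 9 proteins around the exit of the nascent peptide, such as Rpl17, Rpl19, Rpl26, Rpl35 and Rpl39, had differences of 0.22 to 0.42 with a median of 0.29. All 9 rose when KO replicate 1 was left out (edgeR, adjusted p under 0.05), a fit in which 23.6% of all genes were called higher. The 6 small-subunit proteins of the messenger RNA path and the decoding region, among them Rps2, Rps3 and Rps23, had differences of 0.11 to 0.33 with a median of 0.22, and 2 of them rose without KO replicate 1, a share near that of all genes. The 18 members known as Diamond-Blackfan anaemia genes, in which loss of one copy causes red cell aplasia in people, had a median of 0.31, and 13 of them rose without KO replicate 1. Of the 6 members with a described role outside the ribosome, such as Rpsa, which was first known as a laminin receptor, and Rpl13a, part of an interferon-γ-driven translation inhibitor, 5 rose in that fit, with a median of 0.39. Rpl13a itself was at 570.7, 594.4 and 618.3 CPM in the KO and 595.4, 580.6 and 486.3 CPM in the WT libraries, and it was not called (adjusted p = 0.281 without KO replicate 1).

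The 4 members on the X chromosome, Rpl10, Rpl36a, Rpl39 and Rps4x, had differences of 0.22 to 0.36 and a median of 0.27, beside 0.30 for the family. Rps4x (chromosome X, 102184941 to 102189391) was at 640.7, 746.2 and 758.2 CPM in the KO and 596.1, 628.9 and 557 CPM in the WT libraries. Those groups did not overlap (log2 0.27, SE 0.104, edgeR adjusted p = 0.2). Sex, which the Y-linked genes tie to the label, cannot be told apart from the label here either. The other 81 members lie on autosomes, 14 of them on chromosome 7.

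Taken as parts of the family total, the members kept close to fixed proportions. With the summed counts of the family as library size, 57 of the 82 members tested lay within 0.1 of 0 on the log2 scale and 74 within 0.2. edgeR called 0 members higher and 0 lower over all 6 libraries (0.411% and 0.762% of all genes), and 0 members in either direction had an unadjusted p under 0.05. The median coefficient of variation over the WT libraries was 10.2% for a member's CPM and 4.54% for its share of the family. Over the KO libraries it was 11.6% and 6.34%. With KO replicate 1 left out, 3 members were called higher in their share (7.58% of all genes), Rpl39l, Rpl3 and Rpl32. In the same fit 2 were called lower (40.8%), Rpl36al and Rpl21. Rpl39l passed the count filter there only through KO replicates 2 and 3.

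Rpl3 (gene ID 27367, chromosome 15, 80077781 to 80083406, minus strand), which reaches towards the catalytic centre of the large subunit, had 162.2, 264.8 and 249.4 of every 10000 family counts in KO replicates 1, 2 and 3, and 177.6, 192.7 and 198.9 in WT replicates 1, 2 and 3. KO replicates 2 and 3 were above all other libraries, and KO replicate 1 was the lowest of the 6. In CPM the values were 442.6, 872.9 and 791.7 against 475.2, 503.8 and 443. The log2 difference in CPM was 0.57 with a wide error over all libraries (SE 0.258, edgeR adjusted p = 0.258) and 0.83 without KO replicate 1 (SE 0.0893, adjusted p = 0.000243). In its share the difference was 0.44 without KO replicate 1 (SE 0.111, adjusted p = 0.0141).

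Rpl32 (gene ID 19951, chromosome 6, 115805514 to 115808743, minus strand), another large-subunit protein, was at 97.6, 122.7 and 120.2 per 10000 family counts in the KO and 95.4, 97.7 and 88.4 in the WT libraries. KO replicate 1 lay with the WT libraries. Its level in CPM was 266.5, 404.5 and 381.5 against 255.3, 255.4 and 197, without overlap (log2 0.57, SE 0.194, edgeR adjusted p = 0.158). The family's share without KO replicate 1 gave 0.37 (SE 0.113, adjusted p = 0.0284).

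Rpl36al went the other way. This gene (gene ID 66483, chromosome 12, 69182734 to 69184067, minus strand) encodes a near-identical copy of the X-linked Rpl36a. It was at 79.8, 51 and 64 CPM in the KO and 89.6, 83 and 70.8 CPM in the WT libraries. KO replicates 2 and 3 were below every WT library and KO replicate 1 was among them. The log2 difference was -0.32 (SE 0.186, edgeR adjusted p = 0.339) over all libraries and -0.48 (SE 0.138, adjusted p = 0.02) without KO replicate 1. In its share of the family it was -0.86 in the latter fit (SE 0.158, adjusted p = 0.00381).

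Set against its partner, the counts of Rpl36al were 95.5%, 44.6% and 64.6% of those of Rpl36a in KO replicates 1, 2 and 3, and 100%, 93.1% and 91.9% in WT replicates 1, 2 and 3. Rpl36a itself was at 83.5, 114.5 and 99 CPM against 89.6, 89.1 and 77 CPM. The sources used here do not say how reads were divided between such copies, so the split is uncertain. Rpl21 (chromosome 5, 146832890 to 146837032, plus strand), also of the large subunit, had 111.2, 71.9 and 87.9 per 10000 family counts in the KO and 111.2, 106.6 and 121.1 in the WT libraries. Its share fell without KO replicate 1 (log2 -0.50, SE 0.137, edgeR adjusted p = 0.0194). In CPM it was at 303.5, 237 and 279 against 297.6, 278.5 and 269.9, with a log2 difference of -0.05 (SE 0.114, adjusted p = 0.812) whose sign depends on the scaling, at 0.00 with upper-quartile factors.

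**Figure D4:**
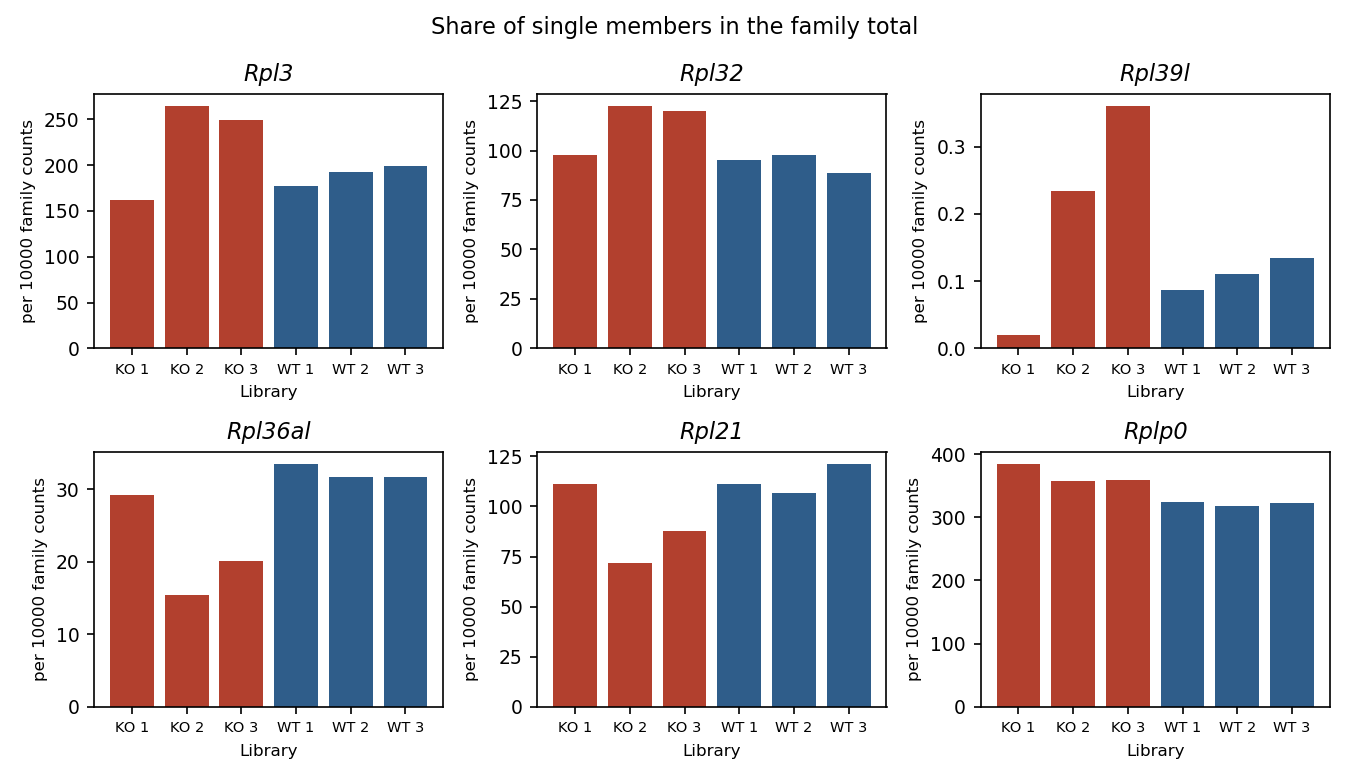
Counts of 6 members per 10000 counts of the family (vertical axis from 0, one scale per panel) in each KO (red) and WT (blue) library. Rpl3, Rpl32 and Rpl39l are high and Rpl36al and Rpl21 low in KO replicates 2 and 3. KO replicate 1 lies near the WT libraries for Rpl32, Rpl36al and Rpl21 and below all of them for Rpl3 and Rpl39l. Rplp0 is at 384.2, 357.7 and 358.7 in the KO and 317.8 to 324 in the WT libraries.

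The other low members by difference were Rpl7, Rps3a1 and Rpl7l1. Rpl7, a large-subunit protein, was at 383.2, 325.4 and 391.6 CPM in the KO and 363.9, 369.2 and 357.3 CPM in the WT libraries, a log2 difference of 0.01 (SE 0.0975, edgeR adjusted p = 0.942). Rps3a1, of the small subunit, was at 550.1, 489.3 and 588.8 against 529.4, 536.7 and 487.9 CPM, a difference of 0.07 (SE 0.101, adjusted p = 0.688). In both genes the groups overlapped, and the signs are not settled, being negative without KO replicate 3 (-0.07 and -0.03).

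The copies that are restricted to some tissues were nearly silent. Rpl10l, the testis copy of Rpl10, had 0 counts in 5 libraries and 1 in WT replicate 2, and Rpl3l, the muscle copy of Rpl3, had 2 counts over the KO and 2 over the WT libraries. No fold is given for either. Rpl39l, a copy of Rpl39 best known from the testis, had 1, 15 and 22 counts in KO replicates 1, 2 and 3 and 4, 5 and 5 in the WT libraries. The group totals of 38 and 14 give a ratio of 2.69 with an exact 95% binomial interval of 1.43 to 5.38, which covers counting error only. Reads copied by PCR are not separate molecules. The gene was too low to be tested over all libraries. Without KO replicate 1 it passed the count filter only through KO replicates 2 and 3, where it is high. Its call in that fit (log2 1.80, SE 0.406, edgeR adjusted p = 0.00728) is therefore no separate evidence of a rise. Rpl32l, a copy of Rpl32 just above the count minimum, had 93 to 115 counts in the KO and 56 to 94 in the WT libraries (log2 0.38, SE 0.252, edgeR adjusted p = 0.396).

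The remaining copies were expressed, and the ratios of their counts to those of the partner overlapped between the groups. Rpl22l1, whose product can stand in for Rpl22, was at 29.8, 40.7 and 32.9 CPM in the KO and 29.3, 27.4 and 30.4 CPM in the WT libraries, a log2 difference of 0.25 (SE 0.139, edgeR adjusted p = 0.331). Its counts were 26.7% ± 2.4 of those of Rpl22 in the KO and 29.4% ± 4.72 in the WT libraries (SD, n = 3 each). Per length it was above its partner, at 202.7% to 236.2% of the TPM of Rpl22 in the KO and 211.4% to 280.5% in the WT libraries. That order therefore rests on the transcript lengths behind the deposited TPM. Rps27l, a copy of Rps27 known as a p53 target, was at 59.7, 77.9 and 64 CPM against 65.2, 57.6 and 61.7 CPM, a difference of 0.13 (SE 0.126, adjusted p = 0.546). Its counts were 27.4% ± 2.62 of those of Rps27 in the KO and 31.1% ± 3.28 in the WT libraries (SD, n = 3 each). Rpl7l1, a nucleolar relative of Rpl7, was at 87.8, 102.3 and 101.1 CPM against 96.9, 92 and 87.1 CPM (log2 0.08, SE 0.0967, adjusted p = 0.628), and its counts were 26.7% ± 4.33 and 25.3% ± 1.18 of those of Rpl7. The GC and length correction moved 2 of these copies far. Rpl22l1, called without KO replicate 1 at a log2 difference of 0.36, was at 1.34 with the correction over all libraries (adjusted p = 0.148) and at 1.71 with the correction and without KO replicate 1 (adjusted p = 0.000261). Rps27l, not called without KO replicate 1 at 0.22 (adjusted p = 0.138), was at 0.73 with the correction over all libraries (adjusted p = 0.207) and was called at 0.97 with both (adjusted p = 0.000914), where Rps27 was at 0.08 (adjusted p = 0.601).

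The levels of the members spanned more than their differences. The median WT level was 942.5 TPM, with 42 members at 1000 TPM or more, 35 from 100 to 1000, 5 from 1 to 100 and 3 under 1. The highest were Rps27, Rpl10, Rplp1, Rpl35, Rps29 and Rpl38. Rps27, a zinc-finger protein of the small subunit, was at 4221.4, 4627.1 and 3580.9 TPM in the KO and 3301.6, 2748.9 and 2648.7 TPM in the WT libraries. Rpl10, which joins the large subunit late in its assembly, was at 3331.1, 3888.3 and 3410.8 against 2647.8, 2611.4 and 2636 TPM. In both, the KO libraries lay above the WT libraries in TPM. On that scale, as log2(TPM + 1), the median difference of all genes was itself 0.12. On the counts, edgeR called neither over all 6 libraries (adjusted p = 0.277 for Rps27 and 0.23 for Rpl10). Without KO replicate 1 it called Rpl10 higher (edgeR adjusted p = 0.0114) but not Rps27 (0.104). The order of the 85 levels was almost the same in both groups (Spearman's rho 0.99 between group means across genes, which are not independent replicates).

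Some low levels go with the transcript model behind the deposited values. The 5 members between 1 and 100 TPM were Rpl22, Rpl7l1, Rps15a, Rps6 and Rpl32l. Rps15a had 178.2 ± 17.6 CPM in the WT libraries but 54.7 ± 3.59 TPM (SD, n = 3), and the deposited FPKM imply a length of 4884 bases, beside a median annotated transcript of 638.5 bases. Rps20, at 102.2 ± 5.13 TPM, goes with an implied length of 3194 bases. Rps6, the small-subunit protein phosphorylated downstream of mTORC1, was low in counts as well, with 240.7 to 253.9 in the WT and 296.5 to 466.6 in the KO libraries, not all whole numbers. How reads shared with copies elsewhere were treated is not stated. Its log2 difference was 0.38 (SE 0.182, edgeR adjusted p = 0.274). Across members the log2 difference showed little relation to transcript length (Pearson's r 0.09, n = 81), to GC content (0.10, n = 81) or to mean CPM (0.11, n = 82), where the points share libraries and depth.

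By pattern alone, the genes outside the family most like it were Plpp2, Zkscan6, Grcc10, Trappc5 and Naa10. They had the smallest root mean square distance, 0.035 to 0.04 on the log2 scale over the 6 libraries after centring, to the mean of the tested members, among 11342 genes. The median member lay at 0.0802 and 7 members were closer than the fifth of these genes. Plpp2 was at 40.3, 50.4 and 50 CPM in the KO and 42.6, 39.9 and 35.1 CPM in the WT libraries. The members farthest from the mean were Rpl36al at 0.409, Rpl3 at 0.256 and Rpl21 at 0.253.

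Genes that work with the ribosome did not all follow it. Fau had a log2 difference of 0.25 (edgeR adjusted p = 0.365) and rose without KO replicate 1 (adjusted p = 0.0401). The next list held 25 elongation factors and other genes listed as TOP genes. The pyrimidine run defined above was present in 7 of its 18 genes with a start window (38.9%), against 37.2% of the other genes tested. Of the 25, 1 rose and 0 fell over all libraries, with a median of 0.21 beside -0.01 for all genes. The one was Hnrnpa1, an RNA-binding protein, at 108.3, 121.7 and 129.1 CPM in the KO and 86.8, 80.6 and 80.4 CPM in the WT libraries (log2 0.54, SE 0.0964, edgeR adjusted p = 0.0469). The groups did not overlap, but the call lay at the threshold and was lost with RLE or upper-quartile factors (edgeR adjusted p = 0.0549 and 0.0764), with no filter (0.0604), with the GC and length correction (0.075, at a log2 difference of 0.92) and without KO replicate 2, KO replicate 3 or any WT replicate (0.154 to 0.278). Eef2, the translocation factor, chosen after its values were seen, was at 2098.1, 2951.5 and 3031.1 against 1786.6, 1962.4 and 1771 CPM, and was not called (log2 0.55, SE 0.163, adjusted p = 0.124). With KO replicate 1 left out, 14 genes of this list rose and 5 fell, against 23.6% and 26% of all genes.

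Ribosome biogenesis factors leaned the other way. Of 45 tested, 0 were called higher and 0 lower by edgeR, and 0 and 3 had an unadjusted p under 0.05. At that unadjusted p, 1709 of all 11424 genes were higher and 887 lower. DESeq2 also called 0 and 0. The difference was below 0 for 37 of them, with a median of -0.14, and for 37 also without KO replicate 1, with a median of -0.18. The factor with the smallest p was Pno1, which helps to process the small-subunit RNA, at 42, 21.6 and 26.4 CPM in the KO and 51.1, 46.9 and 52.2 CPM in the WT libraries (log2 -0.74, SE 0.254, edgeR adjusted p = 0.164). When KO replicate 1 was left out, 2 factors rose and 15 fell, against 23.6% and 26% of all genes, so the share that fell was near that of all genes. Pno1 was among them (log2 -1.05, adjusted p = 0.000326). Of 11 genes of RNA polymerase I, which transcribes the ribosomal RNA, 0 were called in either direction (1 higher and 0 lower at an unadjusted p under 0.05), with a median of 0.04 and the smallest p for the subunit Polr1c (log2 0.35, adjusted p = 0.174). DESeq2 called 0 of them, and 1 rose and 2 fell when KO replicate 1 was left out.

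Genes that control TOP translation and the promoters had 0 calls by edgeR over all 6 libraries. Of 24 genes of mTORC1 and TOP translation control 2 were higher and 3 lower at an unadjusted p under 0.05, and DESeq2 called 1 higher and 1 lower. At that unadjusted p, edgeR had 1709 of all 11424 genes higher and 887 lower. The difference was above 0 for 9 and below 0 for 15 of the 24 (median -0.07). With the GC and length correction it was above 0 for 4 and below 0 for 20 (median -0.09). In that fit 1 was higher and 7 were lower at an unadjusted p under 0.05, against 1545 and 1356 of all 11253 genes. The smallest p was that of Rptor, the mTORC1 scaffold, at 65.8, 67 and 69.7 CPM in the KO and 46.5, 51.9 and 55.4 CPM in the WT libraries (log2 0.40, SE 0.097, edgeR adjusted p = 0.0856). In the fit of KO replicates 2 and 3 with the WT libraries, 2 genes of the list rose and 7 fell, against 23.6% and 26% of all genes. Of 11 factors known at ribosomal protein promoters 0 were called by edgeR and 0 by DESeq2, with 2 higher and 0 lower at an unadjusted p under 0.05 and a median of -0.00. Myc, a driver of ribosome production, had the smallest p (12.2, 16.5 and 14 against 10.9, 9.94 and 10.1 CPM, log2 0.46, SE 0.151, edgeR adjusted p = 0.144). With KO replicate 1 left out, 2 of these factors rose and 2 fell.

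Among p53 response genes, 4 of 14 rose and 0 fell over all 6 libraries, against 2.26% and 1.06% of all genes, with a median of 0.23. Phlda3, a p53-induced repressor of AKT, was at 20.9, 18.6 and 22.3 CPM in the KO and 8.96, 9.36 and 9.37 CPM in the WT libraries (fold 2.23, log2 1.16, SE 0.118, edgeR adjusted p = 0.0157). Cdkn1a, the cell cycle inhibitor p21, was at 193.4, 199.8 and 185.2 against 104.7, 106.2 and 92.3 CPM (log2 0.93, SE 0.0895, adjusted p = 0.0147). Sesn2, a stress-induced inhibitor of mTORC1, was at 29.7, 28.8 and 33.1 against 17.5, 16.6 and 15 CPM (log2 0.90, SE 0.113, adjusted p = 0.0219), and the other called gene was Zmat3 (log2 0.66, adjusted p = 0.0326). With KO replicate 2, KO replicate 3, WT replicate 1, 2 or 3 left out, 0 of these 4 genes were called (edgeR adjusted p = 0.0694 to 0.234), in fits that called 3 to 7 of all genes higher and 2 to 10 lower, and Zmat3 was not called with the GC and length correction (adjusted p = 0.0661). In KO replicates 2 and 3 against the WT libraries, where edgeR called 23.6% of all genes higher and 26% lower, 7 genes of this list rose and 4 fell. Among the latter, Trp53inp1, another p53 target, chosen after its values were seen, was at 84.3 CPM in KO replicate 1, 11.4 and 18.8 CPM in KO replicates 2 and 3 and 47, 47.8 and 70 CPM in the WT libraries.

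**Figure D5:**
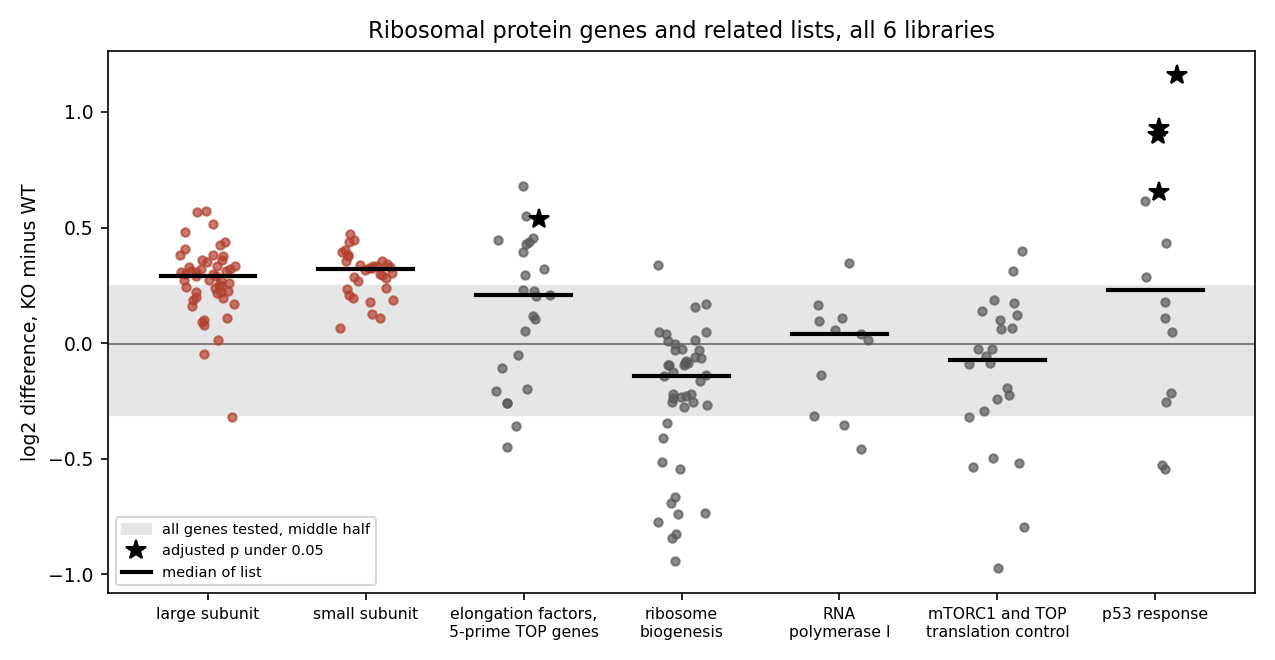
Log2 difference, KO minus WT, over all 6 libraries of the ribosomal protein genes by subunit (red) and of the other lists (grey); each point is a gene, bars are medians, stars mark an adjusted p under 0.05 and the band holds the middle 50% of all genes tested. The medians are 0.29 and 0.32 for the subunits and 0.21 for elongation factors and other listed TOP genes. They are -0.14 for biogenesis factors and 0.23 for p53 response genes.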

How the data were processed

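The members and the gene lists were chosen with earlier results of these data known. RNA was measured in 6 libraries, and the groups KO and WT (3 each) come from the sample titles. The authors deposited 1 table that holds, per the file headers, estimated counts, FPKM and TPM for each gene and library, and the log2 fold change, p-value and q-value of their own DESeq2 comparison (version not given). fastp 0.18.0 and the build GRCm39 are named in the submitters' processing notes, but the coordinates of the table are those of GRCm38: all 85 members were matched by gene ID to RefSeq GRCm38.p6, 73 with the same start. Coordinates are the table's own, and none is given for members on other scaffolds. The sources used here do not give the aligner, the counter, its strand setting or how reads were divided between paralogs. Between 4.823% and 5.488% of the estimated counts per library were not whole (9 members), and they were rounded.

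Counts were filtered with filterByExpr (minimum count 10), scaled by TMM and fitted with the quasi-likelihood test of edgeR 4.0.16 (robust, R 4.3.3) over all 11424 genes, with Benjamini-Hochberg adjustment and a threshold of 0.05. A second fit set the library size to the summed family counts. TPM served for levels and, as log2(TPM + 1) for genes with a mean of at least 1, for limma 3.58.1. FPKM served only for implied lengths. As alternatives, RLE, upper-quartile and member-free factors were tried, further a mean of at least 10 CPM or no filter, DESeq2 1.42.0, limma-voom, an adjusted p under 0.01, each library left out, the replicate number as a block, and smooth GC and length offsets (mgcv 1.9.3, GENCODE transcripts for 84 members). The GC and length fit without KO replicate 1 and the block within the family fit were added after the data were seen. The edgeR test was tested on simulated counts with known changes.

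Members named are the 6 of highest mean TPM, called members (up to 10), the 5 highest and 5 lowest differences, all paralog copies, the P stalk, the 5S pair and the members next to the count minimum. From each list up to 3 called genes of largest change, or the one of smallest p, are named. Other members named as examples of a role, or for what they show, were chosen after their values were seen. Same-numbered libraries did not consistently deviate together. With 3 libraries per group this cannot exclude a pairing by number, on which the labels are silent.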

Additional observations from a re-analysis of the deposited data

How the results depend on the processing

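Over all 6 libraries, 0 members were called higher or lower with RLE, upper-quartile or member-free factors, a mean of at least 10 CPM or no filter, limma-voom, an adjusted p under 0.01 or the replicate block. The count called higher was 3 with the GC and length correction, 4 with DESeq2, 44 by limma on log2 TPM and 53 without KO replicate 1 with the GC and length correction, where 2 were lower. Leaving out each library in turn gave 0 to 61 members higher and 0 to 1 lower, and relative to the family total 0 to 3 higher and 0 to 2 lower; the high ends came without KO replicate 1, and the median difference ran from 0.21 to 0.38. The cause of these shifts was not tested. By limma on log2 TPM the median was 0.46, on a scale where all genes were at 0.12. The ratio of summed shares lay between 1.27 and 1.42 for counts, and was 1.38 for TPM (1.43 without KO replicate 1). A smooth fit on GC content and length took up 14.1% of the variance between genes in the KO minus WT difference over all libraries. Without KO replicate 1 it took up 19.1%. Of the other values, 340 kept their direction and side of the threshold and 39 passed it. For the related lists, 13 counts of called genes shifted by over 1.5 times without KO replicate 1. With DESeq2 the count of listed TOP genes called higher went from 1 to 3, and with the GC and length correction to 0.

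The replicate block called 0 of all 11424 genes, so the calls of Hnrnpa1 and of the 4 p53 response genes were lost with it. It gave 0 members called, 9 higher at an unadjusted p under 0.05 (main 31) and a smallest adjusted p of 0.22; with the GC and length correction it gave 0 and 20. Relative to the family total the block gave 0 and 0. The same-number deviations correlated at -0.162, 0.246 and -0.271, and 1 of 3 KO libraries correlated best with its own number.

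Signs turned only for members near 0 among those named. Rpl21 was at 0.00 with upper-quartile factors and 0.10 by limma on log2 TPM. With single libraries left out, Rpl21 ran from -0.11 to 0.02, Rpl7 from -0.07 to 0.07, Rps3a1 from -0.03 to 0.11, Rps27l from -0.01 to 0.22 and Rplp2 from -0.05 to 0.16. Rpl7l1 was at -0.02 with the GC and length correction, with or without the block, and -0.03 in that correction without KO replicate 1, where Rplp2 was also at -0.03.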
